A study of Mus musculus with 6 samples.

Results

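The CC and XC chemokine ligands are small secreted proteins that draw leukocytes along a concentration gradient by binding G protein-coupled receptors. Of the genes on the array, 10 are covered here: Ccl1, Ccl3, Ccl4, Ccl5, Ccl6, Ccl9, Ccl17, Ccl20, Ccl22 and Xcl1. They were taken as every non-control probe whose gene name in the scanner files is one of these symbols, which gave 11 probes (2 for Ccl5 and 1 for each other gene) of 41174 probes and 27975 named genes in all. No other probe mapped to these genes under a different name. Activated T cells are known as a source of Ccl1, Ccl3, Ccl4, Ccl5, Ccl20 and Xcl1, while Ccl17 and Ccl22 are best known from dendritic cells and Ccl6 and Ccl9 from myeloid cells of the mouse. Ccl1 binds Ccr8, Ccl17 and Ccl22 bind Ccr4, Ccl20 binds Ccr6, and Xcl1 binds Xcr1 on cross-presenting dendritic cells.

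Each of 6 two-colour Agilent arrays compared 2 RNAs from CD4 T cells of the spleen of C57BL/6J mice. One came from cells treated with PMA, a phorbol ester that turns on protein kinase C, and ionomycin, which lets calcium into the cell, together with vasoactive intestinal peptide (VIP). The other came from untreated cells, meaning cells given PMA and ionomycin but no VIP. VIP is a neuropeptide whose receptors couple to cAMP. Both groups carried the activation, so no resting cells were compared here. The mice were 6 to 32 weeks old and of both sexes, each sample pooled several spleens, and anti-CD4 magnetic beads selected the cells. VIP RNA was labelled with Cy5 on 3 arrays and with Cy3 on 3. The sample titles speak of splenocytes and the other labels of CD4 T cells. Neither the VIP dose nor its duration was stated in the labels.

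The probes that carry the main results are shown as the array holds them, so that each value can be tied to a stretch of transcript. The Xcl1 and Ccl1 probes are given whole. Of the Ccl3 and Ccl4 probes the first 30 bases are given, with any ATTTA, the core of AU-rich elements found in many short-lived cytokine transcripts, in capitals. Each runs 5′ to 3′ on the strand of the transcript.
Xcl1: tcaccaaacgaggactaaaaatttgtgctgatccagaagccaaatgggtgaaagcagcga
Ccl1: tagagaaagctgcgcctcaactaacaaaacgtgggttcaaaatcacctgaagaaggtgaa
Ccl3: catgaactgacaaatgtacaatagatgctt
Ccl4: tattATTTAtgttttagttataggacgcgt
On build mm9, as the files give positions, the Xcl1 probe lies on chromosome 1 at 166862020 to 166862079 (minus strand) and the Ccl1 probe on chromosome 11 at 81990336 to 81990395 (minus strand). The Ccl3 probe lies on chromosome 11 at 83461358 to 83461417 (minus strand) and the Ccl4 probe on the plus strand of the same chromosome at 83478052 to 83478111. Their place within exons was not analysed here. Over the whole probes, ATTTA on the probe's strand occurs in 3 of 11 (those of Ccl4, Ccl20 and Ccl22) and in 9.16% of all 41174 probes of 60 bases. The longest run of bases that any 2 of the 11 probes share is 8 bases, in 55 pairs compared, so the probes of the neighbouring paralogs Ccl3 and Ccl4 read different letters.

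Replicate 5 stands apart from the other arrays and enters the ratio of every member but Ccl1 and Ccl9. Outlier flags removed 13.5% of its spots, against 0.574% to 4.44% on the other arrays. Its log2 ratios of VIP over untreated, with the dye effect removed, were -2.80 for Xist and 3.32 and 3.38 for the Y-linked Ddx3y and Eif2s3y. The Y-linked Uty and Kdm5d had smaller ratios there, 0.39 and 0.90. On the other 5 arrays these transcripts lay between -0.83 and 0.96 on the same measure. The dye effect was fitted over all arrays, so replicate 5 also moved the adjusted values of the others, and they moved its own. The VIP and untreated RNAs of replicate 5 thus differed in sex-linked transcripts, and the part of this in the ratios was not tested. Between 56.9% and 99.9% of spots were well above background by channel and array. Cd4 and Cd3d were well above background on all 6 arrays in both channels, and so was the CD8 gene Cd8b1. With flagged spots left out, the brightest of 2 Cd3e probes was so on only 2 arrays in each channel. The brightest of 3 Cd8a probes was so on only 1. Neither gene was tested, and their other probes are not given here. The number of arrays limits the precision.

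No chemokine ligand passed the test for a difference with VIP. Of 10 members, all were tested, 0 were called higher and 0 lower (limma, Benjamini-Hochberg adjusted p under 0.05), beside 1.61% of all 22553 genes called higher and 0.528% called lower (2.14% in either direction). None reached an unadjusted p under 0.05, beside 13.0% of all genes. With so few members, a count of 0 is near the background and says nothing particular about them. The log2 ratios of VIP over untreated lay between -0.10 for Ccl20 and 0.09 for Ccl5, with 7 of 10 above 0. Their median was 0.03, and that of all genes was -0.00037. The limma adjusted p lay between 0.55 and 0.91. The 95% intervals of the ratios were not adjusted for the number of genes. The lowest bound of any member was 0.823-fold (Ccl20) and the highest 1.17-fold (Ccl1). These intervals cover the spread between arrays, not a signal's nearness to background. Fewer cells of a type and less RNA per cell cannot be told apart in such samples.

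**Figure D1:**
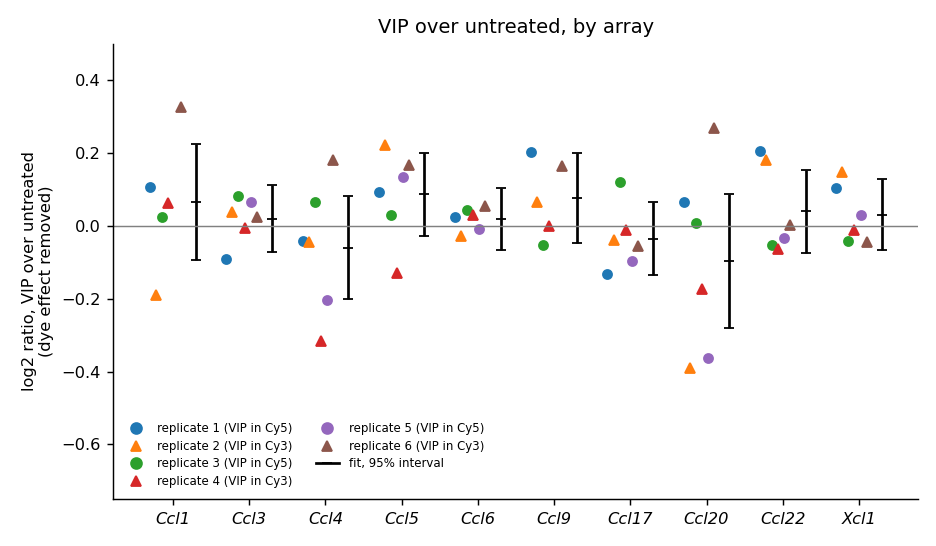
Log2 ratio of VIP over untreated for each chemokine ligand on each array after removal of the dye effect (points, shaped by the dye that VIP carried), with the fitted ratio and its 95% interval in black. Every interval spans 0, and the points of Ccl20 spread most, between -0.39 and 0.27.

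Ccl3 and Ccl4, the macrophage inflammatory proteins 1 alpha and 1 beta, were bright on every array. Levels are given as normalised log2 intensity, which can be compared between samples of one probe but not between probes. Ccl3 had a lowest level of 14.64, a median of 16.79 and a highest of 17.31 in VIP RNA, against 14.45, 16.84 and 17.11 in untreated RNA. The ranges of both groups overlap almost wholly. Its log2 ratio was 0.02 ± 0.041 (SE; 6 arrays; adjusted p = 0.91 by limma), with a 95% interval of -0.07 to 0.11, and it was higher with VIP on 4 of 6 arrays after the dye effect was removed. Ccl4 had 15.10, 17.07 and 17.24 in VIP RNA, against 15.45, 17.05 and 17.26 in untreated RNA. Its log2 ratio was -0.06 ± 0.063 (limma adjusted p = 0.78; 95% interval -0.20 to 0.08) and 4 of 6 arrays were lower on the same measure. Without replicate 5 the ratios were 0.0077 for Ccl3 and -0.02 for Ccl4. With median centring they were 0.10 for Ccl3 and 0.03 for Ccl4, so the sign of Ccl4 turned.

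The low end of both genes came from replicate 5 alone. There Ccl3 stood at 14.64 with VIP and 14.45 without, while the lowest of the other 5 arrays was 16.63 with VIP and 16.73 without. Ccl4 stood at 15.10 with VIP and 15.45 without, against a lowest other value of 16.79 with VIP and 16.91 without. Averaged over both channels, Ccl3 was lower by a log2 difference of -2.32 from the median of the other replicates and Ccl4 by -1.80. Of 18960 genes with a value on that array, 195 were at least as low as Ccl3 and 338 at least as low as Ccl4 on this measure. On this scale, replicate 5 lay much further from the other replicates than VIP lay from untreated RNA on any array. The size of that gap depended on the scaling between arrays. In unscaled mean signal, Ccl3 on replicate 5 was 76870 in Cy5 and 22710 in Cy3, against lowest values elsewhere of 127600 and 44150. Ccl4 was 117200 in Cy5 and 47200 in Cy3, against 168600 and 57850. After removal of the dye effect, the VIP ratio on replicate 5 was 0.07 for Ccl3 and -0.20 for Ccl4.

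**Figure D2:**
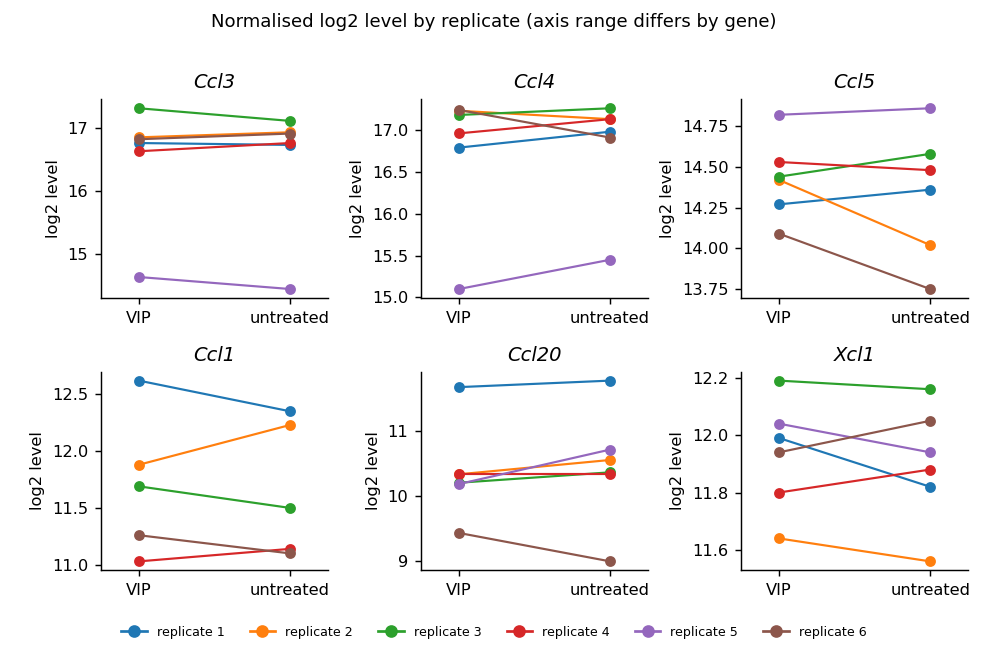
Normalised log2 level of 6 chemokine ligands in VIP and untreated RNA, with a line joining the 2 channels of each replicate; the vertical range differs by gene, and the flagged Ccl1 spot of replicate 5 is left out. Replicate 5 lies near 14.5 for Ccl3 in both channels, and the other replicates lie above 16.6.

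Ccl5, or RANTES, which draws T cells and monocytes, was the member with the largest rise in value and still did not pass. Its brighter probe had a lowest level of 14.09, a median of 14.43 and a highest of 14.82 in VIP RNA, against 13.75, 14.42 and 14.86 in untreated RNA. The ratio was 0.09 ± 0.052 (SE; 6 arrays; adjusted p = 0.55 by limma), or 1.06-fold, with a 95% interval of -0.03 to 0.20. It was above 0 on 5 of 6 arrays after the dye effect was removed, and on 3 of 6 before. With median centring in place of loess it was 0.20, and still did not pass. The other probe, read from a second transcript record (M77747), had a ratio of 0.08 ± 0.066 (limma adjusted p = 0.70 over 33068 probes), above 0 on 5 of 6 arrays both before and after that removal. After removal of the dye effect, both probes were below 0 on replicate 4, at -0.13 and -0.25, while the brighter one had 0.05 there before it. Of the 11 probes, 0 were called higher and 0 lower, beside 1.62% and 0.532% of all probes tested (2.15% in either direction), and 0 had an unadjusted p under 0.05. Unlike Ccl3 and Ccl4, the brighter Ccl5 probe was at its highest in replicate 5, with 14.82 in VIP RNA and 14.86 in untreated RNA. The other Ccl5 probe was highest there in VIP RNA (12.82), but its untreated level of 12.73 lay below the 12.78 of replicate 4.

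Within the 3 slides, each of which held 1 array of each dye orientation, the mean Ccl5 ratio was 0.16, -0.05 and 0.15 for the brighter probe. For Ccl3 it was -0.03, 0.04 and 0.05, and for Ccl4 it was -0.04, -0.12 and -0.01. Ccl4 was thus below 0 on each slide, as was Ccl20 with -0.16, -0.08 and -0.05. The arrays that carried VIP in Cy5 all shared a slide position, so position and dye orientation cannot be told apart.

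Ccl1, which attracts Ccr8-bearing cells such as Th2 and regulatory T cells, was measured on 5 arrays, since its spot on replicate 5 carried an outlier flag. Its level had a lowest value of 11.03, a median of 11.69 and a highest of 12.62 in VIP RNA, against 11.10, 11.50 and 12.35 in untreated RNA. The log2 ratio was 0.07 ± 0.071 (SE; 5 arrays; adjusted p = 0.79 by limma), with a 95% interval of -0.09 to 0.23. It was 0.00086 without replicate 6 and 0.13 without replicate 2. The dye-adjusted arrays did not point one way, with -0.19 on replicate 2 and 0.33 on replicate 6. Its dye effect, 0.17 for red over green, was larger than the ratio itself. In size, the same held at the brightest probe of every other member but Ccl6 and Ccl22.

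Xcl1, or lymphotactin, the XC chemokine made by activated T and NK cells, varied little between arrays. Its lowest level was 11.64, its median 11.96 and its highest 12.19 in VIP RNA, against 11.56, 11.91 and 12.16 in untreated RNA. The log2 ratio was 0.03 ± 0.044 (SE; 6 arrays; adjusted p = 0.85 by limma), with a 95% interval of -0.07 to 0.13. After the dye effect was removed, 3 arrays were above 0 and 3 below, against 4 and 2 before.

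Ccl20, which attracts Ccr6-bearing lymphocytes, had the lowest ratio of the members and the widest error. It had a lowest level of 9.43, a median of 10.26 and a highest of 11.67 in VIP RNA, against 8.99, 10.45 and 11.77 in untreated RNA. The log2 ratio was -0.10 ± 0.083 (SE; 6 arrays; adjusted p = 0.70 by limma), with a 95% interval of -0.28 to 0.09. With the dye effect removed it was -0.39 on replicate 2 and -0.36 on replicate 5, but 0.27 on replicate 6. It was -0.02 without replicate 2, -0.03 without replicate 5 and -0.19 without replicate 6, and it did not pass in any of the 6 fits that left out a replicate. By the root mean square difference of the ratios on 6 arrays, the tested genes closest to Ccl20, of 18429 compared, were Btbd7 (0.0747), 9630010G10Rik (0.0819) and Wdr37 (0.0845), none of which was called.

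Levels differed more between replicates than between the treatments on the same array. Each replicate is a single array, so replicate and array cannot be told apart, while VIP and untreated RNA shared an array. The standard deviation of the log2 level over replicates, averaged over both channels, was 0.971 for Ccl3, 0.797 for Ccl20, 0.748 for Ccl4 and 0.591 for Ccl1, against a median of 0.292 over all genes. It was 0.312 for Ccl5 and 0.193 for Xcl1. Without replicate 5 it was 0.199 for Ccl3 and 0.131 for Ccl4, but still 0.891 for Ccl20, more than in 97.6% of genes, and 0.591 for Ccl1, more than in 90.5%. Ccl20 was highest in replicate 1 and lowest in replicate 6 both with VIP and without, while the order of the others differed. Ccl1 was likewise highest in replicate 1 in both groups, with 12.62 in VIP RNA and 12.35 in untreated RNA. What set these differences between replicates was not tested.

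Ccl6, Ccl9, Ccl17 and Ccl22 were dim, and their ratios were measured near background. Against the median of 153 negative control spots on the same array and channel, the Ccl6 signal was 1.37 to 3.44 times as high in VIP RNA and 1.46 to 5.10 times in untreated RNA. The figures were 1.75 to 5.27 times in VIP RNA and 2.24 to 6.57 times in untreated RNA for Ccl9, 1.31 to 3.31 and 1.30 to 4.83 for Ccl17, and 1.30 to 2.83 and 1.31 to 3.59 for Ccl22. By contrast, the Ccl3 signal was 841 to 5930 times this median in VIP RNA and 501 to 5160 times in untreated RNA. Per channel, 5 of 6 arrays had Ccl6 well above background, and 4 of 6 had Ccl17 or Ccl22 so. The array of replicate 6, where 99.0% of all spots in VIP RNA and 99.9% in untreated RNA were well above background, counted for each of these genes.

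**Figure D3:**
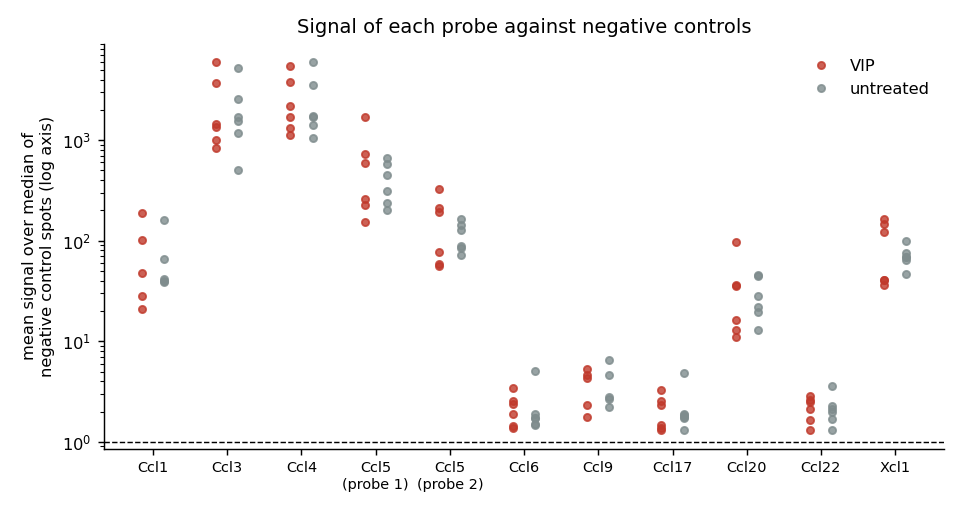
Mean signal of each of the 11 probes over the median of the negative control spots of the same array and channel, on a log axis, with a point per array for VIP (left of each pair) and untreated RNA; flagged spots are left out, and heights should not be compared between probes. The dim genes Ccl6, Ccl9, Ccl17 and Ccl22 lie within 1.30 to 6.57 times the controls, near the dashed line at the control median.

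In these dim genes, the level averaged 6.91 ± 0.096 with VIP and 6.89 ± 0.097 without for Ccl6 (SD, n = 6 arrays), and 7.55 ± 0.19 with VIP and 7.50 ± 0.20 without for Ccl9 (n = 5 arrays). It averaged 6.86 ± 0.17 with VIP and 6.895 ± 0.15 without for Ccl17, and 6.92 ± 0.28 with VIP and 6.88 ± 0.30 without for Ccl22 (n = 6 arrays). Their log2 ratios were 0.02, 0.08, -0.04 and 0.04 in the same order of genes, with limma adjusted p of 0.90, 0.64, 0.83 and 0.83. The ratios of the dimmest genes differed with the processing. Agilent's own log ratios, which differ in both background correction and normalisation, gave 0.19 for Ccl6 and -0.15 for Ccl17. A normexp offset of 0, with nothing else altered, gave 0.0282 for Ccl6 and -0.0954 for Ccl17, and no value passed. The Ccl9 spot of replicate 5 carried an outlier flag and was left out. Its mean signal was 5820 in VIP RNA and 837 in untreated RNA, while no other array exceeded 284.7 in VIP RNA or 654.5 in untreated RNA, and it alone gave a ratio of 1.60 before any dye adjustment. With flagged spots kept, the Ccl9 ratio was 0.31 (limma adjusted p = 0.50).

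Ccr8, the receptor of Ccl1, was higher with VIP. Among 9 receptors considered (Ccr1, Ccr3, Ccr4, Ccr6, Ccr8, Xcr1, Ackr1, Ackr2 and Ccrl2), 8 were tested, of which 2 rose, 0 fell and 6 did not pass, beside 1.61% of all genes higher and 0.528% lower. Their median log2 ratio was 0.08. Ccr1, the main receptor of Ccl6 and Ccl9 in the mouse, was not tested, as it was well above background on 1 array in each channel. Ccr8 was 1.75-fold higher, a log2 ratio of 0.81 ± 0.064 (SE; 6 arrays; adjusted p = 0.00029 by limma), while its ligand Ccl1 had 0.07. Ccrl2, which binds chemerin and is not known to signal, rose with a log2 ratio of 0.32 at one probe and 0.27 at the other. Both of these receptors were higher on 6 of 6 arrays. Ccr6 had 0.11. Xcr1 had 0.12 over 4 arrays with a dye effect of 0.46, and its mean level ran the other way, with 8.71 in VIP RNA and 8.82 in untreated RNA. Its other probe had -0.06. Ccr4, named because it binds Ccl17 and Ccl22, had -0.06. By limma their adjusted p was 0.51 for Ccr6, 0.65 for Ccr4 and 0.53 for Xcr1, none of which passed. The difference between a receptor and its ligand was not itself tested.

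**Figure D4:**
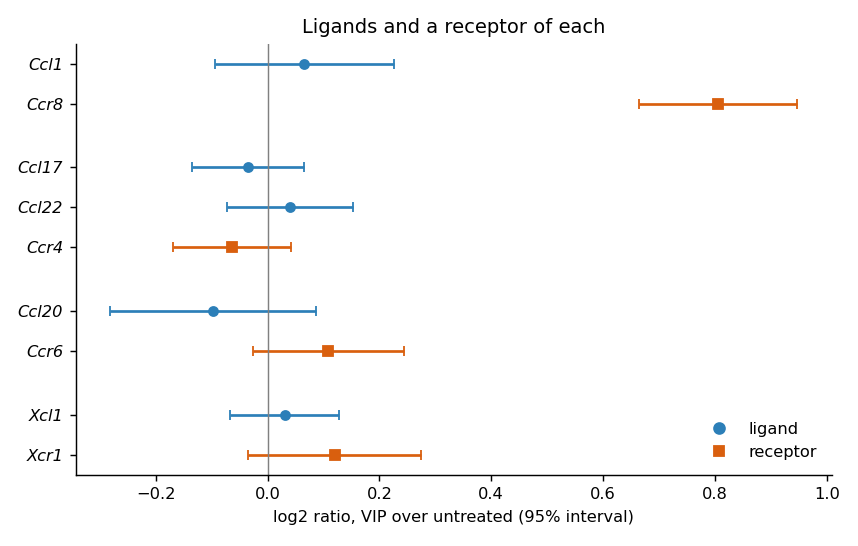
Log2 ratio of VIP over untreated with its 95% interval for 5 chemokine ligands (circles), each above a receptor it binds (squares). The interval of Ccr8, at 0.66 to 0.95, lies above 0, and those of the other receptors plotted and of the ligands span 0.

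Other CC ligands did not pass either. Of 14 genes in that list, 10 were tested, 0 rose and 0 fell, beside 1.61% of all genes higher and 0.528% lower. With so few genes, a count of 0 is near the background. The median log2 ratio of those tested was -0.08. The 4 with the smallest p were Ccl27a (-0.15), Ccl25 (-0.15), Ccl21a (-0.12) and Ccl7 (-0.09), with limma adjusted p between 0.28 and 0.45. Among 22 factors known to act at chemokine promoters or to restrain them, from the NF-kB, NFAT, AP-1, EGR and CREB families together with Irf4, 4 rose, 0 fell and 18 did not pass, beside 1.61% of all genes higher and 0.528% lower. Their median was -0.0059. Egr2 (-0.30), Egr3 (-0.20) and Egr1 (-0.14) were each lower on 6 of 6 arrays after the dye effect was removed. They did not pass, with limma adjusted p of 0.053, 0.072 and 0.13. Fos rose by a log2 ratio of 0.71 and Fosb by 0.39, both AP-1 subunits. Rel, an NF-kB subunit, rose by 0.26. Crem, the gene of the cAMP-induced repressor ICER, rose by 0.31 at its brightest probe, which had values on 4 arrays and a dye effect of -0.47. The 6 Crem probes ranged from 0.18 to 0.64, and the lowest of them did not pass (limma adjusted p = 0.18).

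The upstream 250 bases were available for 8 of the 10 genes (RefSeq, GRCm38.p6), without Ccl4 and Ccl5. Searched on both strands, the cAMP response element TGACGTCA was found in 0 of 8 and its core TGACG in 0 of 8, beside 1.55% and 17.8% of 32851 mouse promoters. The AP-1 letters TGANTCA occurred in 1 of 8 (Ccl9), beside 6.75%. A loose kappaB motif, GGG and CC with any 5 bases between them, occurred in 4 of 8, beside 45.8%. These are letters in a short window, not sites of binding. Ccl1 and Ccl20 are shown, as the members whose level differed most between replicates once replicate 5 was left out. Capitals mark the matches to this motif, read on either strand, which overlap one another in both sequences.
Ccl1: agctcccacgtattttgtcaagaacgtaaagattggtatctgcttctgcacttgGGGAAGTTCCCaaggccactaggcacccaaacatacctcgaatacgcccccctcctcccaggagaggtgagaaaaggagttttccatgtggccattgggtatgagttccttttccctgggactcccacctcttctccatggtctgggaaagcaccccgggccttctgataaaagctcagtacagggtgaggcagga
Ccl20: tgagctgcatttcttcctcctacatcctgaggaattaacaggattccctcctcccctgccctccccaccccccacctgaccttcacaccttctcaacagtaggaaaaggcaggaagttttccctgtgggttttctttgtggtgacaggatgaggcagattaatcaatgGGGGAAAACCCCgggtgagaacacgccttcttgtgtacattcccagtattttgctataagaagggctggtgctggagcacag
On GRCm38.p6 the Ccl1 stretch is chr11:82179813-82180062 (minus strand) and the Ccl20 stretch is chr1:83116516-83116765 (plus strand). Both end at the base before the annotated start.

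Markers of other spleen cells were measured beside the members, since Ccl6, Ccl9, Ccl17 and Ccl22 are best known outside T cells. Of 8 tested markers of CD4 T cells, 6 did not pass, while Cd28 was higher by a log2 ratio of 0.28 and Cd2 by 0.22. Over all genes, 1.61% were called higher and 0.528% lower. Among 8 tested markers of monocytes and macrophages, Cd14 was higher by a log2 ratio of 0.57 over 5 arrays and 7 did not pass, with summed linear levels of 11070 to 20640 in VIP RNA and 8748 to 20330 in untreated RNA. Of 9 dendritic cell markers 0 passed, with sums of 1810 to 2791 in VIP RNA and 1968 to 2315 in untreated RNA. Of 8 NK cell markers 0 passed, with sums of 3363 to 3872 in VIP RNA and 3133 to 3915 in untreated RNA. B cell markers (7 tested), the CD8 gene Cd8b1 and neutrophil markers (4 tested) had 0 calls each. In lists this short, a count of 0 is near the background. Ratios were above 0 for 9 of 9 dendritic cell markers (median 0.0545) and 7 of 8 of monocytes and macrophages (median 0.085). They were so for 5 of 8 of CD4 T cells, 5 of 8 of NK cells, 6 of 7 of B cells and 2 of 4 of neutrophils. Each sum mostly follows its brightest probes, such as Lyz2 (level 13.5 in VIP RNA) for monocytes and macrophages and Nkg7 (11.11) for NK cells. The sums should thus not be compared between cell types. Flagged spots were kept in these sums. The part of such cells in the levels of the ligands was not tested.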

How the data were processed

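Agilent Feature Extraction 9.5.1.1, per the file headers, produced the deposited intensity and background of each spot and channel, its 0 or 1 flags, and a log10 ratio (red over green) of dye-normalized signals. Per the labels' protocols, 250 ng of total RNA was labelled per sample. The authors' series table holds the same log10 ratios turned to VIP over untreated (largest difference 4.5e-06), with column medians between -0.002 and 0.

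Here, mean signals were corrected with normexp (offset 50) and normalized by loess within each array in limma 3.58.1 under R 4.3.3, with control spots at weight 0. Control spots (1639) and flagged spots were left out, except that the summed levels of cell type markers kept flagged spots. Levels were also scaled between arrays (Aquantile). Of 43379 spots, 26788 were named by RefSeq accession, 1810 by synonym and 14781 as in the files. The brightest probe stood for its gene, which was tested where well above background on at least 3 arrays in either channel. Each array is the pair of its replicate; log2 ratios were modelled by a dye term and the effect of VIP (lmFit, eBayes, 4 residual and 6.19 prior degrees of freedom), adjusted by Benjamini-Hochberg over 22553 genes. The labels call the arrays biological replicates and describe pooled spleens for each sample. The fit was tested on simulated data. Named genes are all members and all their probes, and at most 4 with the smallest p per list of receptors or other ligands (3 of the factors). Ccr1 and Ccr4, which bind members, Rel, the EGR factors and cell type markers were named after their values were seen. The members, lists and alternatives were chosen with earlier results of these data known. One gene of the receptor list is not reported here.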

Additional observations from a re-analysis of the deposited data

Results flagged for a closer look

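Of 33 sets of 5 or 6 values (the dye-adjusted ratio and the level in each group for 11 probes), 4 held an array that stood far from the others by Dixon's criterion, which chance exceeds in about 1 in 20 sets. All were levels in replicate 5. Ccl3 had a level of 14.64 in VIP RNA, where the other arrays lay between 16.63 and 17.31, and of 14.45 in untreated RNA, where the others lay between 16.73 and 17.11. Ccl4 had 15.10 in VIP RNA, where the others lay between 16.79 and 17.24, and 15.45 in untreated RNA, where the others lay between 16.91 and 17.26. The sets are not independent, since both channels share an array. No ratio of VIP over untreated was singled out in this way. On the same array sex-linked transcripts differed between the channels, and their part in these levels was not tested.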

How the results depend on the processing

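Under 20 alternative settings 0 members were called in either direction. Over these settings the ratio ranged from 0.00086 to 0.13 for Ccl1, 0.0037 to 0.10 for Ccl3, 0.05 to 0.20 for Ccl5, 0.0127 to 0.31 for Ccl9, -0.15 to -0.0113 for Ccl17, -0.19 to -0.02 for Ccl20 and 0.0017 to 0.0932 for Xcl1, with 1 sign each. The sign of another member's ratio turned in 4 cases. Median centring gave 0.0271 for Ccl4 and -0.0156 for Ccl6. Leaving out single replicates gave -0.12 to 0.0043 for Ccl4 (the highest without replicate 4) and -0.0012 to 0.0661 for Ccl22 (the lowest without replicate 1). The cause was not tested. The count over all genes, 363 higher and 119 lower, moved more. It was 75 and 9 with a normexp offset of 0. Under median centring it was 112 and 8. Agilent's log ratios gave 19 and 0, as did the authors' series table, which holds the same values. With no dye intercept it was 162 and 39, array weights gave 472 and 215, and with flagged spots kept it was 312 and 75. Leaving out single replicates gave 163 to 559 higher and 33 to 247 lower, the most without replicate 5. Since each array pairs both groups, the fit with no replicate block treated the channels as separate samples, and it called 1 gene higher and 0 lower, with 0 members. The filter that asked for all 6 arrays in both channels left out Ccl6, Ccl17 and Ccl22, which were dim, and Ccl1 and Ccl9, which had a flagged spot.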
